A study of Rattus norvegicus with 8 samples.

Results

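The genes that encode the microtubule motors of the axon, the kinesins, cytoplasmic dynein and dynactin, were measured in untreated trigeminal nerve of rats. They were taken as all genes on the array whose symbol starts with Kif, Klc, Dync or Dctn, together with Pafah1b1, which encodes the dynein regulator Lis1. This gave 44 of the 13337 genes with a symbol, measured by 46 of 22523 probes. A probe was tested if 2 or more of the 8 arrays detected it above background (detection p below 0.05), and 39 of the 44 genes had such a probe, 1 each. The groups were BDIV rats, BDIX.BDIV-Mss4a rats (Mss4a from here on), BDIX.BDIV-Mss4d rats (Mss4d) and BDIX rats. By their names the congenic strains Mss4a and Mss4d carry BDIV segments on a BDIX background, and the segments themselves are not described in the labels. As background, ethylnitrosourea, a carcinogen, is known to induce malignant nerve sheath tumours in BDIX rats, often in the trigeminal nerve, while BDIV rats resist it. All rats were 85 days old, and each strain gave 1 pool of nerves from females and 1 from males, each run on 1 array. How many animals went into a pool is not stated, and neither sex of a strain was measured more than once. The p-values measure only the spread between these pools, which may be technical in part and includes any sex difference that varies between strains.

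A kinesin or dynein molecule turns ATP into steps along a microtubule. In an axon most kinesins walk outward, away from the cell body, with vesicles, mitochondria and cytoskeletal proteins, while cytoplasmic dynein walks back with signalling endosomes and spent organelles, and needs dynactin and Lis1 to start and to hold its cargo. A peripheral nerve holds the axons of sensory and motor neurons together with Schwann cells, fibroblasts and vessels, all of which use these motors too, and other kinesins build the spindle of dividing cells. In RNA from a whole nerve, fewer cells of a type and less RNA per cell cannot be told apart.

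The tissue carried the markers of both main components. Of the 20 markers of sensory neurons and axons on the array 19 were tested, and all 11 of the markers of myelinating Schwann cells were. Between 47.7% and 54.3% of all probes, and 33 to 37 of the motor probes, were detected on each array. Median signals before normalization were 145 and 141 for Mss4d and between 80.2 and 98.7 in the other strains. The medians do not show how bright probes compared. The authors' own values multiplied this signal by 1.90 and 1.86 on the Mss4a arrays and by 0.677 to 1.05 on the others. Transcripts of other tissues stood out in the congenic strains: the summed level of 6 nasal and salivary gland markers was 5348 and 5153 in the Mss4a arrays and 176 to 287 elsewhere, and that of 5 thyroid markers was 5598 in the female and 75939 in the male Mss4d array and 162 to 279 elsewhere. Levels below are log2 intensities after background correction and quantile normalization, and a difference of 1 is a factor of 2. Levels of different probes are not comparable, so each gene is compared only with itself across the arrays.

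Of the motor genes 30 were detected on all 8 arrays. All 5 genes of cytoplasmic dynein 1, all 6 of dynactin, both of dynein 2, Pafah1b1, all 3 kinesin-1 heavy chains and all 3 genes of kinesin-2 were among them. Of the 10 mitotic kinesins only Kif22 and Kifc1 were. Kif9, Kif13a, Kif15 and Kif18a were detected on 0 arrays and Kif13b on 1, so these 5 genes were not tested. Kif5c and Kif11 each had a second probe that was detected on no array. Kif1a, Kif3a, Kif21a and Klc2, further axonal motor genes, were not analysed here. The 44 genes lie on 17 chromosomes of the GRCr8 assembly, to which they were matched by gene, since the array names no genome build.

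**Figure D1:**
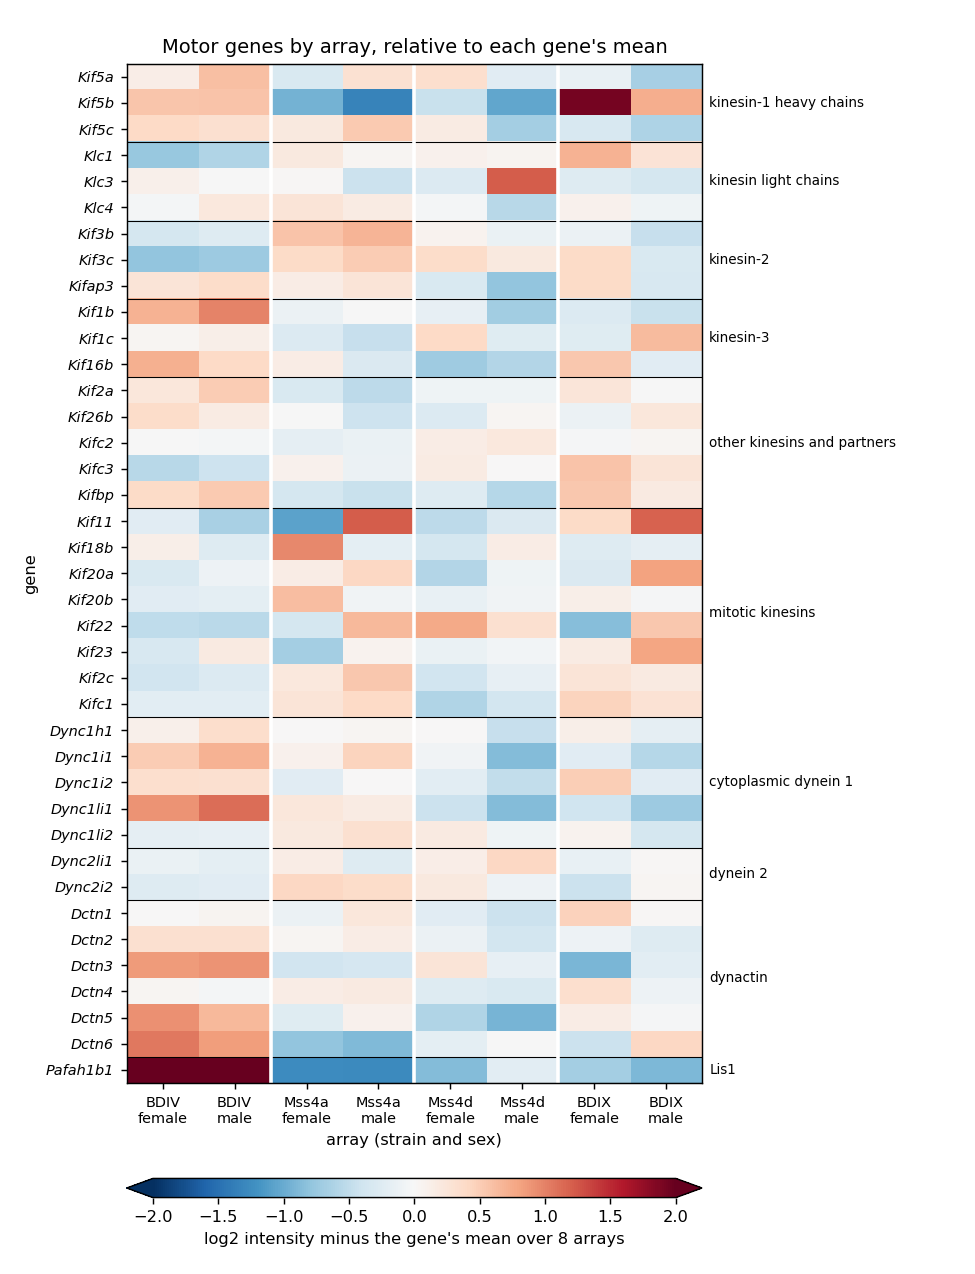
Level of each of the 39 tested motor genes on each of the 8 arrays, as the log2 difference from the gene's own mean over all arrays, with the colour scale ending at 2 in either direction. Columns are the arrays by strain and sex, rows are the genes by role; Pafah1b1 is high on both BDIV arrays and Kif5b is low on all 4 congenic arrays.

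The promoters of 4 genes that differed between the strains are shown because these genes come from different arms of transport and moved in different directions: Kif5b, which fell in both congenic strains, and Dync1li1, Kif1b and Klc1, of which Dync1li1 and Kif1b rose and Klc1 fell in BDIV. Pafah1b1, which had the largest difference of the motor genes, has no promoter entry and could not be shown. The 250 bases before the start of each gene are printed 5′ to 3′ on the gene's strand, from RefSeq on the GRCr8 assembly, a reference that is none of the strains studied. Capitals mark the GC box GGGCGG on either strand (CCGCCC on the other); the copies in Kif5b overlap. They lie at chr17:56185136-56185385 on the plus strand for Kif5b, chr8:123254720-123254969 on the plus strand for Dync1li1, chr5:165025849-165026098 on the minus strand for Kif1b, and chr6:136644350-136644599 on the plus strand for Klc1.
Kif5b: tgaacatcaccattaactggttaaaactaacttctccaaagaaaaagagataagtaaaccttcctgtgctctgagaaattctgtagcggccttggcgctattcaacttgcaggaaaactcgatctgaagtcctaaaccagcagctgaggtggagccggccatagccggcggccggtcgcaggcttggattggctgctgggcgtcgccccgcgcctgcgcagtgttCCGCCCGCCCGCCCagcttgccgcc
Dync1li1: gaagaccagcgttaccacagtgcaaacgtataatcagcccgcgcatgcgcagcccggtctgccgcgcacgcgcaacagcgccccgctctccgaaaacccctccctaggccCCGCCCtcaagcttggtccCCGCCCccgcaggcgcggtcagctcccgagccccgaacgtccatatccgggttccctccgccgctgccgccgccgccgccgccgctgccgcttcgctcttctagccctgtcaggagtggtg
Kif1b: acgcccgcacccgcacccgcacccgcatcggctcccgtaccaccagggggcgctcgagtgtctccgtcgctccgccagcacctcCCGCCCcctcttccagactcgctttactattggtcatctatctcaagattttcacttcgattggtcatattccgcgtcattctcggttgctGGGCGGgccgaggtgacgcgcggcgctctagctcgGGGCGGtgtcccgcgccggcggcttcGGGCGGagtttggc
Klc1: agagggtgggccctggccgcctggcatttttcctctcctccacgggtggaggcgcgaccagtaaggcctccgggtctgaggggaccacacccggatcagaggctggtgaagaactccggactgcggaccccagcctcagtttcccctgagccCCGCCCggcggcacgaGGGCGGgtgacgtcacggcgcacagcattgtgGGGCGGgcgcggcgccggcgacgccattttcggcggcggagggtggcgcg
Kif5b held 3 GC boxes, Dync1li1 2, Kif1b 4 and Klc1 3, and none of the 4 held the letters TATAAA on either strand. Over the 38 motor genes with an entry in the table, 23 promoters (60.5%) held a GC box, against 32.3% of all 27457 promoters. The letters CCAAT, on either strand, occurred in 42.1% of the motor promoters and 34.2% of all, and TATAAA in 10.5% and 13.1%. The motifs were searched separately and may share letters at their ends. The median GC content was 61.6% in the motor promoters and 52.0% in all, so that a motif made of G and C is also likelier by composition. A match describes the letters of the window and no binding was measured.

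BDIV was set against BDIX to see how nerves of the resistant and the susceptible strain differ. In BDIV nerves Pafah1b1, a light intermediate chain of dynein, 2 dynactin subunits and the vesicle kinesin Kif1b rose, and the kinesin light chain Klc1 and the kinesin Kifc3 fell. Of the 39 motor genes 7 passed an adjusted p under 0.05 in limma (Benjamini-Hochberg over all 13114 tested probes, two-sided, n = 2 pools per strain), 5 higher and 2 lower, which is 17.9% beside 21.0% of all tested probes. The share of motor genes called was thus no larger than that of the array as a whole, where 10.0% of probes were called higher and 11.0% lower. The median difference of the motor genes was 0.09, against -0.03 over all tested probes. At an unadjusted p under 0.05 there were 16 (41.0%), beside 36.7% of all probes.

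Pafah1b1 (chromosome 10) had the largest difference of the motor genes. Its level was 10.15 in the BDIV female and 10.20 in the BDIV male array, against 6.89 in the BDIX female and 6.69 in the BDIX male array. The congenic arrays lay with BDIX, at 6.32 and 6.31 in Mss4a and 6.71 and 7.37 in Mss4d, so that both BDIV arrays stood far above the other 6. The difference from BDIX was 3.39 ± 0.24 (SE), 10.5-fold, with an adjusted p of 0.00165 in limma. Without the BDIV female array it was 3.34 with an adjusted p of 0.0567. A single probe measures this gene, and whether the strains differ in sequence under it was not tested.

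Among the dynein genes Dync1li1, a light intermediate chain that links the motor to cargo adaptors, rose. It stood at 8.54 and 8.75 in the BDIV arrays, against 7.24 and 6.91 in the BDIX arrays (difference 1.57 ± 0.22, adjusted p 0.00759 in limma). The BDIV and BDIX arrays did not overlap, and the difference was 1.29 in females and 1.84 in males. Its paralog Dync1li2, the other light intermediate chain, was at 13.50 and 13.51 in BDIV and 13.75 and 13.33 in BDIX, a difference of -0.03 ± 0.20 whose sign turned with arrays scaled to their medians (0.20). The difference between the paralogs was not tested. The intermediate chain Dync1i1, the form known from neurons, had 13.48 and 13.67 in BDIV and 12.74 and 12.40 in BDIX, and its difference of 1.0 ± 0.29 missed the threshold (adjusted p 0.0509 in limma). The widely expressed intermediate chain Dync1i2 (0.20 ± 0.25) and the heavy chain Dync1h1 (0.26 ± 0.23), which holds the motor domain, did not pass. The values of the 2 genes of dynein 2, the motor of cilia, were -0.10 ± 0.22 for Dync2li1 and -0.05 ± 0.22 for Dync2i2.

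Of the 6 dynactin genes 2 rose. Dctn3, which encodes a small subunit of the shoulder that joins dynactin's arm to its filament, was at 11.65 and 11.69 in BDIV, against 9.89 and 10.58 in BDIX (1.44 ± 0.27, adjusted p 0.015 in limma). The BDIX arrays were 0.69 apart, and both lay below the BDIV arrays. Dctn6, a subunit of the complex at the filament's pointed end, had 7.57 and 7.35 in BDIV, against 6.10 and 6.93 in BDIX (0.95 ± 0.27, adjusted p 0.0491 in limma). That call was close to the threshold and held under 5 of 18 other settings. Its neighbour at the pointed end, Dctn5, had 11.24 and 10.98 in BDIV and 10.48 and 10.30 in BDIX and did not pass (0.72 ± 0.22, adjusted p 0.0576). Dctn2, the subunit dynamitin, was at 0.50 ± 0.18 (adjusted p 0.0992), while Dctn1, the microtubule-binding p150 subunit, was at -0.22 ± 0.23 and Dctn4 at -0.11 ± 0.19. The signs of Dctn1 and Dctn4 turned with arrays scaled to their medians.

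The kinesins moved in both directions. Kif1b, a kinesin-3 known for carrying synaptic vesicle precursors and mitochondria, rose: 10.12 and 10.41 in BDIV, against 9.15 and 8.97 in BDIX (1.20 ± 0.24, adjusted p 0.0164 in limma). All 6 arrays of the other strains, at 8.73 to 9.40, lay below the BDIV arrays. The other kinesin-3 genes that were tested had 0.40 ± 0.24 for Kif16b, which moves early endosomes, and -0.12 ± 0.34 for Kif1c.

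Klc1, the light chain through which kinesin-1 binds many cargoes, fell in BDIV. It had 11.82 and 11.97 in BDIV, against 13.27 and 12.86 in BDIX (-1.17 ± 0.20, adjusted p 0.0121 in limma), and 12.62 to 12.78 in the congenic arrays. The BDIV arrays were the lowest of all 8. The light chains Klc4 (0.09 ± 0.22) and Klc3 (0.35 ± 0.43) did not pass. The kinesin-1 heavy chains, which carry the motor itself, gave 0.78 ± 0.34 for Kif5a and 0.83 ± 0.28 for Kif5c, both best known from neurons, and -0.76 ± 0.29 for the widely expressed Kif5b, with adjusted p-values of 0.142, 0.0781 and 0.102 in limma. Kif5b was called, at -1.19 with an adjusted p of 0.0395, when the BDIX male array was left out.

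Kifc3, a kinesin that walks toward the minus end, was the other gene that fell, with 9.58 and 9.71 in BDIV, against 10.70 and 10.39 in BDIX (-0.90 ± 0.19, adjusted p 0.02 in limma). In kinesin-2, Kif3c had 10.30 and 10.35 in BDIV and 11.46 and 10.78 in BDIX and missed the threshold (-0.79 ± 0.24, adjusted p 0.0558). The other tested genes of kinesin-2 gave -0.01 ± 0.20 for Kif3b and 0.28 ± 0.26 for the cargo adaptor subunit Kifap3. None of the 8 mitotic kinesins tested passed, and their median was -0.51: the smallest adjusted p belonged to Kifc1 (-0.57 ± 0.19, 0.0691), and Kif11, the bipolar spindle motor, had the largest difference and the largest error (-1.23 ± 0.56). Of 17 markers of proliferating cells 3 fell and 0 rose, with a median of -0.71. The remaining kinesins Kif2a, Kif26b, Kifc2 and Kifbp, a kinesin-binding protein, lay between -0.03 and 0.25.

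In the same comparison the neuron markers were higher and the Schwann cell markers lower. Of 19 neuron markers 8 rose and 0 fell (median 1.02), led by Ina, Thy1, Calcb and Uchl1, and their summed level was 240659 and 241684 in the BDIV arrays, against 146015 and 132701 in the BDIX arrays and 98590 to 183909 in the congenic arrays. Of 11 Schwann cell markers 0 rose and 8 fell (median -1.15), among them the myelin gene Mbp (-1.54 ± 0.24), and the summed level was 67234 and 81959 in BDIV, against 171664 and 126907 in BDIX and 107991 to 130897 in the congenic arrays. Of 9 red cell markers 6 fell and of 11 fibroblast and perineurium markers 6 fell. The part of these markers in the motor gene differences was not tested.

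Calls across the whole array depended on single arrays. Without the BDIV female array 0 motor genes were called, beside 0.107% of all probes, without the BDIV male array 1, beside 0.419%, and without the BDIX female array 1, beside 0.229%. Without the BDIX male array 8 were called, beside 19.3%. Between the BDIV and the BDIX arrays 19 motor genes did not overlap (48.7%), beside 66.6% of all tested probes: 11 were above, beside 31.2% of all, and 8 below, beside 35.4%.

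**Figure D2:**
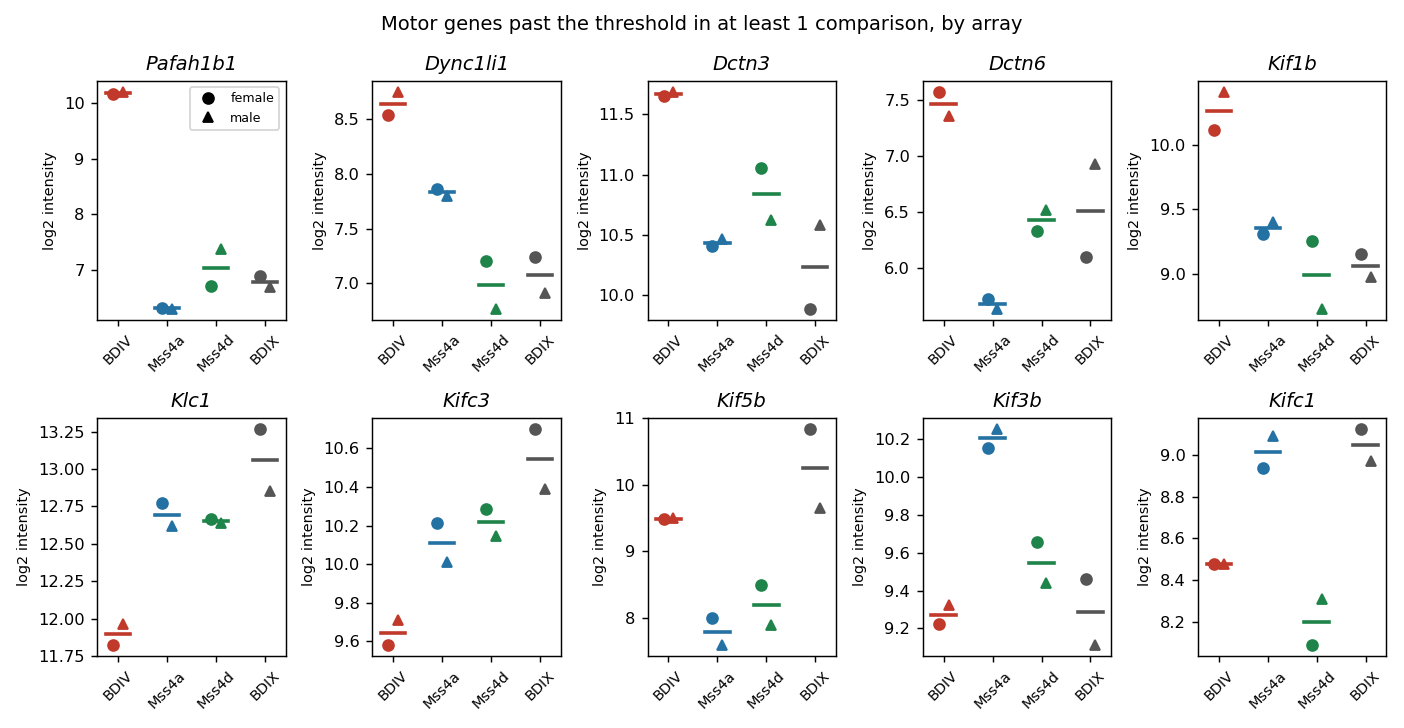
Log2 level of the 10 motor genes called in at least 1 comparison on each array, by strain, with the female and the male pool as separate points. Pafah1b1 is near 10.2 on both BDIV arrays and at most 7.37 elsewhere, and Kif5b is between 7.59 and 8.49 on the congenic arrays and between 9.48 and 10.84 on the BDIV and BDIX arrays.

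Mss4a was compared with BDIX to ask what its BDIV segment changes on the shared background. Kif5b fell and Kif3b rose, and 37 motor genes did not pass. The 2 genes are 5.1% of those tested, beside 12.2% of all probes (4.78% higher and 7.46% lower). The median difference of the motor genes was 0.06, against -0.002 over all probes, and 9 (23.1%) had an unadjusted p under 0.05, beside 32.5% of all.

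Kif5b (chromosome 17), the heavy chain of kinesin-1 in most tissues, had 7.99 in the Mss4a female and 7.59 in the Mss4a male array, against 10.84 in the BDIX female and 9.65 in the BDIX male array. It was also 9.48 and 9.50 in the BDIV arrays. The Mss4a arrays thus lay below both parental strains, and the difference from BDIX was -2.46 ± 0.29, 5.49-fold lower, with an adjusted p of 0.0111 in limma. The BDIX arrays were 1.19 apart, and without the higher, female one the difference was -2.03 with an adjusted p of 0.0707. The other kinesin-1 heavy chains gave 0.41 ± 0.34 for Kif5a and 0.83 ± 0.28 for Kif5c (adjusted p 0.425 and 0.0958 in limma). Kif5c had 7.47 and 7.79 in Mss4a, against 6.95 and 6.66 in BDIX, and its difference was 0.14 with arrays scaled to their medians.

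Kif3b, a motor subunit of kinesin-2, was at 10.15 and 10.26 in Mss4a, against 9.46 and 9.11 in BDIX (0.92 ± 0.20, 1.89-fold, adjusted p 0.0329 in limma). Both Mss4a arrays were above the other 6, which ran to 9.66. Before normalization the signal of Kif3b was 608 and 658 in Mss4a, against 699 and 570 in BDIX. The call held under 10 of 18 other settings, and the difference was 0.27 with arrays scaled to their medians. The other tested genes of kinesin-2, Kif3c (0.41 ± 0.24) and Kifap3 (0.18 ± 0.26), did not pass.

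Just short of the threshold were Kifbp (-0.75 ± 0.20, adjusted p 0.052 in limma), which had 10.48 and 10.38 in Mss4a and 11.36 and 11.01 in BDIX, the midzone kinesin Kif23 (-0.78 ± 0.22, adjusted p 0.0593) and Dync1li1 (0.76 ± 0.22, adjusted p 0.0631). Dync1li1 had 7.86 and 7.80 in Mss4a, against 7.24 and 6.91 in BDIX, and its difference was 0.04 with arrays scaled to their medians. Pafah1b1 was at -0.48 ± 0.24 (adjusted p 0.216), Klc1 at -0.37 ± 0.20 and Kif1b at 0.30 ± 0.24. The dynactin genes ran from -0.83 for Dctn6 to 0.27 for Dctn2. With arrays scaled to their medians the median of all probes moved by -0.37, and 14 motor genes (35.9%) were called, all lower, beside 30.5% of all probes.

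Of the 19 neuron markers 1 rose (Rtn1, 1.05 ± 0.26) and 0 fell, and the summed level was 144383 and 183909 in Mss4a, against 146015 and 132701 in BDIX. Of the 11 Schwann cell markers 0 rose and 5 fell. All 6 nasal and salivary gland markers rose (median 3.84), and 3 of 8 skeletal muscle markers rose. The part of these markers in the 2 calls was not tested. Between the Mss4a and the BDIX arrays 19 motor genes did not overlap (48.7%), beside 58.5% of all probes. Without the BDIX female array 0 motor genes and 0 of all probes were called. Without the BDIX male array 1 motor gene was called, beside 7.07% of all probes, and without an Mss4a or a BDIV array 1, beside 1.23% to 1.83%.

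In Mss4d against BDIX, Kif5b and Kifc1 fell and no motor gene rose. These 2 are 5.1% of the 39, beside 5.34% of all probes, of which 1.38% were called higher and 3.96% lower. The median difference of the motor genes was -0.16, against 0.01 over all probes. At an unadjusted p under 0.05 there were 8 (20.5%), beside 26.7% of all.

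Kif5b had 8.49 in the Mss4d female and 7.90 in the Mss4d male array, against 10.84 and 9.65 in the BDIX female and male arrays. As in Mss4a, both arrays were below those of BDIV and BDIX, and the difference from BDIX was -2.05 ± 0.29, 4.14-fold lower (adjusted p 0.0205 in limma). Both congenic comparisons use the same BDIX arrays. Without the BDIX female array it was -1.62 with an adjusted p of 0.138, and the call was also lost, at -2.02 to -2.09, without either Mss4d array or either BDIV array. Kif5b was the only motor gene called in more than 1 comparison. A single probe measured it, and whether the probe's target differs in sequence or splicing between the strains was not tested.

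Kifc1, a minus-end kinesin that bundles spindle microtubules, had 8.09 and 8.31 in Mss4d, against 9.13 and 8.97 in BDIX (-0.85 ± 0.19, 1.80-fold lower, adjusted p 0.0488 in limma). The Mss4d arrays were the lowest of all 8, with BDIV at 8.48 on both arrays and Mss4a at 8.94 and 9.09. The call held under 6 of 18 other settings. The other 7 mitotic kinesins tested lay between -1.19 for Kif11 and 0.69 for Kif22, and the 17 proliferation markers had a median of -0.17.

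Kifbp (-0.78 ± 0.20, adjusted p 0.0685 in limma), Dctn5 (-0.83 ± 0.22, adjusted p 0.0727) and Kif16b (-0.81 ± 0.24, adjusted p 0.099) came next. Dctn5 had 9.73 and 9.40 in Mss4d and 10.48 and 10.30 in BDIX. Pafah1b1 (0.25 ± 0.24), Dync1li1 (-0.09 ± 0.22), Kif1b (-0.07 ± 0.24) and Klc1 (-0.41 ± 0.20) did not pass, and neither did Dctn3 (0.61 ± 0.27). The sign of Klc1 and that of Kif1b turned with arrays scaled to their medians.

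The 19 neuron markers had a median of -0.13, and their summed level was 147968 and 98590 in Mss4d, against 146015 and 132701 in BDIX. Of the 11 Schwann cell markers 2 fell and 0 rose, and 2 of 5 thyroid markers rose (median 5.63). The part of these markers in the 2 calls was not tested. Between the Mss4d and the BDIX arrays 17 motor genes did not overlap (43.6%), beside 55.6% of all probes: 3 were above, beside 27.4% of all, and 14 below, beside 28.2%. Without the BDIX female, the Mss4d male or either BDIV array 0 motor genes were called, beside at most 0.305% of all probes, and without either Mss4a array 1, beside 5.71%. Without the Mss4d female array the difference of Klc3, the light chain known from testis, was 1.62. It rests on 1 Mss4d array, at 6.43, and Klc3 was detected on neither BDIX array nor on the Mss4d female array.

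**Figure D3:**
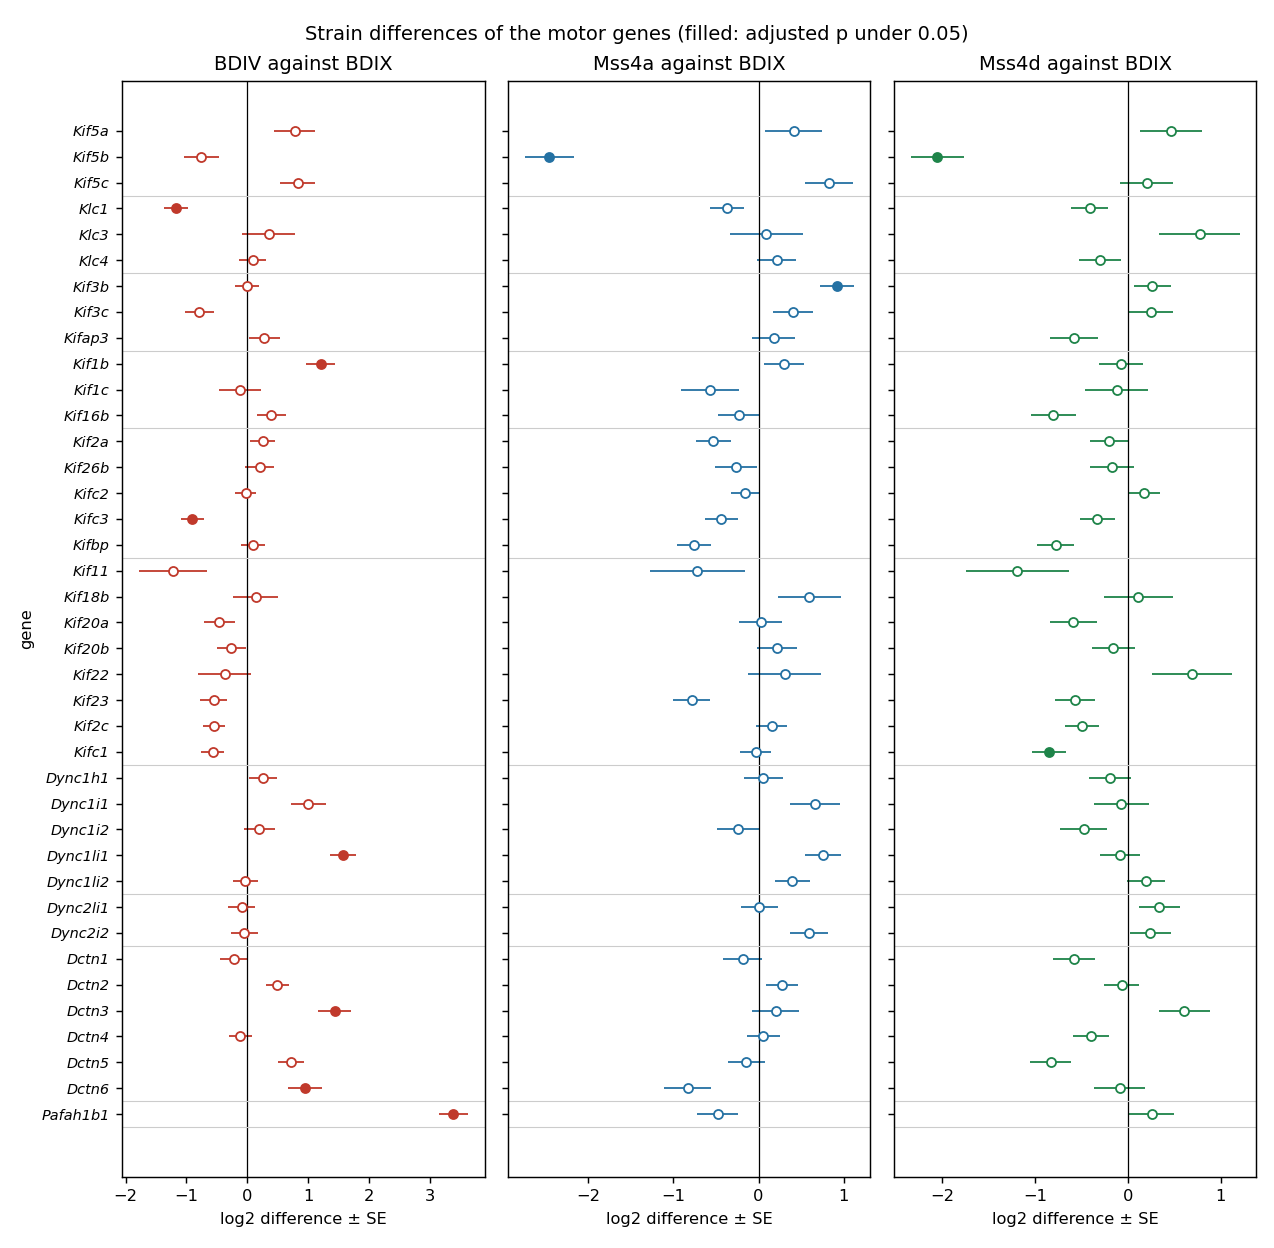
Log2 difference with its standard error for each of the 39 tested motor genes in BDIV, Mss4a and Mss4d, each against BDIX, with filled points for an adjusted p under 0.05 in limma. Pafah1b1 stands at 3.39 in BDIV and within 0.5 of 0 in the congenic strains, and Kif5b at -2.46 in Mss4a and -2.05 in Mss4d.

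Set against each other, Mss4a and Mss4d had no motor gene past the threshold in limma, beside 1.22% of all probes, and 11 motor genes (28.2%) had an unadjusted p under 0.05, beside 24.3% of all. The smallest adjusted p-values were 0.0738 for Kifc1 (0.82 ± 0.19) and 0.0881 for Dync1li1 (0.84 ± 0.22). Kifc1 had 8.94 and 9.09 in Mss4a and 8.09 and 8.31 in Mss4d, and Dync1li1 had 7.86 and 7.80 in Mss4a and 7.21 and 6.77 in Mss4d. In both genes the strains did not overlap. With arrays scaled to their medians the differences were -0.16 for Kifc1 and 0.04 for Dync1li1. Kif5b, low in both strains, differed by -0.40 ± 0.29 (adjusted p 0.411), with an overlap of 7.99 in the Mss4a female and 7.90 in the Mss4d male array. Of the 39 genes 25 did not overlap (64.1%), beside 57.3% of all probes: 19 were higher on both Mss4a arrays, beside 28.9% of all, and 6 lower, beside 28.4%.

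The direction of the motor genes between the congenic strains depended on the scaling. The median of the 39 was 0.25 after quantile normalization and -0.55 with arrays scaled to their medians, a change that moved the median of all probes by -0.65. With that scaling 18 motor genes were called lower in Mss4a and 1 higher, 48.7% of the 39, beside 50.9% of all probes. With the authors' own values 0 were called, beside 0.168% of all probes.

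Between the male and the female arrays no motor gene passed in limma (n = 4 pools each), and neither did any other tested probe, 0%, under any alternative run. At an unadjusted p under 0.05 there were 526 of the 13114 probes, 3 of them motor genes: Kif20a (0.52), Kif23 (0.49) and Kif5b (-0.54), and the smallest adjusted p of a motor gene was 0.926. Males and females of a strain also give the only view of the spread between pools. Over the 39 genes the SD of male minus female was 0.203 in BDIV (0.219 over all tested probes), 0.530 in Mss4a (0.486), 0.450 in Mss4d (0.506) and 0.558 in BDIX (0.509). The BDIV pools were thus closer to each other than those of the other strains, and no motor gene differed by more than 1 between them. All comparisons share 1 residual spread, so the BDIV pools also enter the p-values of the congenic strains against BDIX. On only the 4 arrays compared, 8.60% of all probes were called in Mss4a and 0.839% in Mss4d, beside 12.2% and 5.34% in the full fit. That fit also has fewer residual degrees of freedom, and the part of each was not tested.

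Differences over 1 between the sexes of a strain were seen in 2 motor genes in Mss4a, 1 in Mss4d and 3 in BDIX. In BDIX, Kif22, a kinesin of chromosome arms, was 8.84 in the male and 7.44 in the female array. Kif20a was 6.57 in the male and 5.47 in the female BDIX array, and Kif5b 9.65 in the male and 10.84 in the female one. In Mss4a, Kif11 was 7.36 in the male and 5.07 in the female array, and Kif18b 5.11 in the male and 6.26 in the female array. In Mss4d, Klc3 was 6.43 in the male and 4.94 in the female array. Except for Kif5b and Kif22 these are dim probes that were not detected on all 8 arrays. Among the mitotic kinesins, Kif11, Kif20a, Kif22 and Kif23 were higher in the male array of both Mss4a and BDIX. Kif20b was lower in both, and Kif18b, Kif2c and Kifc1 changed sign between these strains. The summed level of 8 granulocyte markers was 442 in the female and 8077 in the male Mss4a array. It was 1356 and 7453 in BDIX, 2163 and 2971 in Mss4d, and 306 and 308 in BDIV. The part of these markers in the sex differences was not tested. A strain by sex term would leave no residual spread and was not tested.

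**Figure D4:**
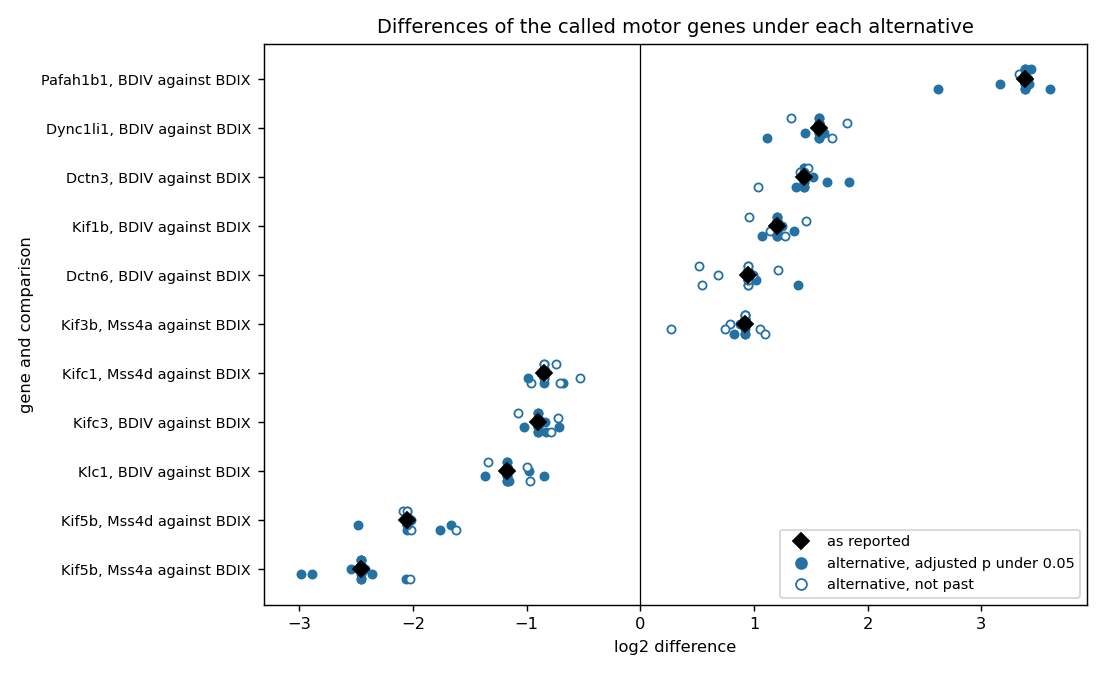
Log2 difference of the called motor genes under each alternative processing and with each array left out, with filled points where the adjusted p in limma stayed under 0.05 and a diamond for the value reported. Every called difference keeps its direction under all of them, and that of Pafah1b1 stays between 2.62 and 3.60.

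Genes that work with the motors were set beside them. In BDIV against BDIX 10.0% of all tested probes were called higher and 11.0% lower, beside which the counts below stand. Of 6 tested dynein light chains, the small subunits shared with other complexes, 1 rose in BDIV against BDIX: Dynll2 (1.64 ± 0.29, adjusted p 0.0123 in limma), while its paralog Dynll1 was at -0.23 ± 0.20. Of 24 tested adaptors and regulators of the motors 1 rose and 3 fell in BDIV (median -0.06). Grip1, which links kinesin-1 to glutamate receptors, rose (1.44 ± 0.25), and the lysosome adaptor Plekhm1 (-0.88 ± 0.18), the kinesin-1 cargo scaffold Mapk8ip1 (-0.73 ± 0.19) and the microtubule-tip protein Clip2 (-0.71 ± 0.19) fell.

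Of 24 genes of the microtubule track, tubulins and their partners, 11 rose and 3 fell in BDIV (median 0.82). Ttl, the tubulin tyrosine ligase (1.39 ± 0.18), the microtubule-associated proteins Map2 (1.74 ± 0.30) and Map1a (1.82 ± 0.33) and the tubulin Tuba8 (1.55 ± 0.28) led the rises. The 3 that fell, named after their values were seen, were Map4 (-0.95 ± 0.20), Tubb5 (-0.82 ± 0.22) and Stmn1 (-0.78 ± 0.21). Of 23 genes of transported cargo, mainly synaptic vesicle proteins, neurofilaments and neurotrophin receptors, 8 rose and 0 fell (median 0.65), led by the vesicle GTPase Rab3a (1.91 ± 0.26), Cplx1 (1.40 ± 0.19), the neurotrophin receptor Ntrk2 (1.79 ± 0.31) and Syn1 (0.94 ± 0.21). Several track and cargo genes, such as Tubb3 and the neurofilaments, are also among the neuron markers, so the lists are not separate evidence. The motor genes had a median of 0.09 with 5 higher and 2 lower calls in the same comparison.

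**Figure D5:**
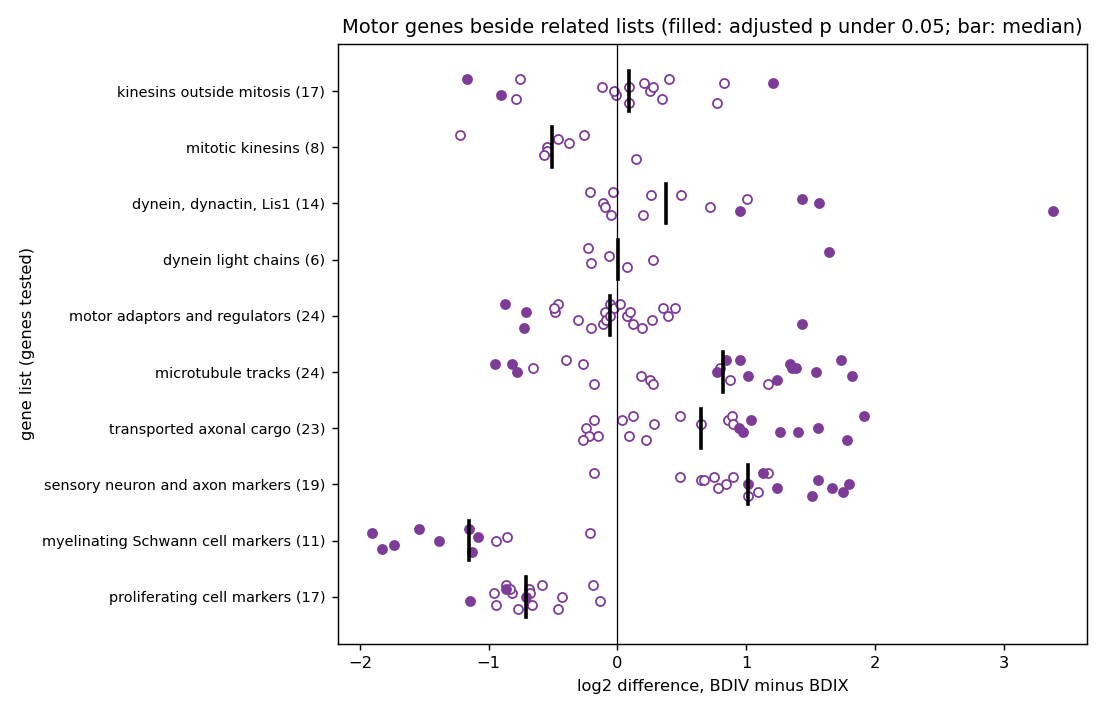
Log2 difference of BDIV minus BDIX for each tested gene, as points filled where the adjusted p is under 0.05, with a bar at the median of each list; the motor genes are split into kinesins outside mitosis, mitotic kinesins, and dynein with dynactin and Lis1. The motor genes spread on both sides of 0, and the medians are -0.51 for mitotic kinesins, 0.82 for the microtubule track, 0.65 for cargo, 1.02 for neuron markers and -1.15 for Schwann cell markers.

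The calls among these genes in the congenic strains stand beside 12.2% of all probes called in Mss4a and 5.34% in Mss4d, each against BDIX. In Mss4a against BDIX, adaptors gave 1 rise, Hap1 (1.04 ± 0.19), and 3 falls, the microtubule plus-end proteins Mapre1 (-1.95 ± 0.28) and Clip1 (-1.13 ± 0.22) and the kinesin-1 adaptor Fez2 (-0.89 ± 0.21). The track gave 1 fall, Stmn1 (-1.46 ± 0.21), and cargo 2 rises, Aplp1 (2.26 ± 0.31) and Scamp5 (0.69 ± 0.18). In Mss4d against BDIX, Mapre1 (-2.04 ± 0.28) and Fez2 (-1.53 ± 0.21) fell among the adaptors and the track protein Map1b (-2.12 ± 0.38) fell. The 23 cargo genes had a median of 0.06 in Mss4a and 0.10 in Mss4d, and the 6 dynein light chains of 0.39 and 0.40.

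In all, 10 of the 39 tested motor genes passed in at least 1 comparison and 29 in none. The share of all probes called in at least 1 comparison was not computed. In no single comparison was the share of motor genes called above that of all probes. All 10 were detected on every array of the groups compared, and each called difference had the same sign in females and in males. A call rests on these same female and male differences, so their agreement in sign is not separate evidence. The 29 include 4 of the 5 genes of cytoplasmic dynein 1, both of dynein 2, Dctn1, Dctn2, Dctn4 and Dctn5, and the neuronal heavy chains Kif5a and Kif5c. Dync1h1 kept to 14.03 to 14.84 on the 8 arrays, the SD of its strain means being 0.19. Kifc2 was the steadiest of the tested motor genes, from 8.63 to 9.01, with an SD of its strain means of 0.14. At the other end Pafah1b1 and Kif5b had SDs of their strain means of 1.76 and 1.14.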

How the data were processed

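RNA was hybridised to 8 Illumina RatRef-12 arrays, 1 per pool of trigeminal nerves, from 4 strains and both sexes. Per the labels' protocols, total RNA was extracted with TRIzol and labelled as biotin cRNA, and per the series' design text the arrays were read with GenomeStudio 2010. The deposited table used here holds linear intensity, not background-corrected or scaled, and the authors' detection p-values, in steps of 0.00121. The authors' own value table, also linear intensity, is a straight line of that signal per array (largest residual 0.0143); its options are not stated.

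In R 4.3.3 with limma 3.58.1, neqc (offset 16, with the negative controls estimated through the detection p-values) turned the deposited intensity into quantile-normalized log2 values. Of 22523 probes 13114 with detection p under 0.05 on at least 2 arrays were tested. Strain and sex were terms of 1 fit over all 8 arrays (3 residual degrees of freedom, 4.09 prior, prior SD 0.223). There were 5 comparisons, two-sided, with Benjamini-Hochberg adjusted p under 0.05 over all tested probes as threshold. The number of arrays limits the precision. The background of a count of members is the share of all tested probes.

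The members, roles and gene lists were chosen with earlier results of these data known. Named with values were all members past the threshold and a fixed set of core axonal motor genes; of the other lists, up to 4 called genes with the smallest p, and others as stated. Summed levels add the normalized intensities of a list's genes. Promoters came from RefSeq (GRCr8); only the bases before each start were used. The fit was tested on simulated data of 13114 probes: over 20 runs, for BDIV against BDIX it called a median of 14% (6% to 30%) of 100 probes changed by a log2 of 1 and 70.5% (57% to 81%) of 100 changed by 2, with 0 to 7 false calls. For male against female the medians were 53.5% (45% to 63%) and 89% (83% to 95%), with 3 to 10 false calls. Only these 200 probes were changed in a run, while 21.0% of all probes were called in the real BDIV against BDIX comparison. The recovered shares therefore need not hold for the data. Alternatives were no background correction, arrays scaled to medians, the authors' values, no or a stricter detection filter, a trended robust variance, no other factor, only the 4 arrays compared, the mean of a gene's probes, and each array left out. Fits without both Mss4a or both Mss4d arrays were added after seeing the data.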

Additional observations from a re-analysis of the deposited data

Results flagged for a closer look

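Among the 4 arrays of a sex, 1 per strain, a BDIV array stood apart from the other 3 in 4 of 78 tests, and about 1 in 20 such tests comes out by chance. Pafah1b1 was highest in the BDIV female array at 10.15, Kif1b highest in the BDIV female array at 10.12, Dctn3 highest in the BDIV male array at 11.69, and Kif3c lowest in the BDIV female array at 10.3. In each case the gap between the BDIV array and the nearest other array, over the range of the 4, was above Dixon's critical value at the 95% level.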

How the results depend on the processing

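Strain and sex are both terms of the fit, so the strains are compared within each sex. No further pairing of the pools was possible because the labels give them no numbers. Over the named members and all alternatives, 2114 of 2235 values stayed on their side of the threshold, 57 passed it newly in the same direction, 56 lost it and 8 that had not passed did so with the other sign. Of the 2114, 148 were past the threshold with the same sign, and 1966 were past it in neither fit, of which 120 changed sign (the largest reported size among them was 0.816). With arrays scaled to their medians, called motor genes numbered 11 for BDIV against BDIX (8 higher, 3 lower; 24.8% of all probes), 14 for Mss4a against BDIX (30.5%), 4 for Mss4d against BDIX (20.8%) and 19 for Mss4a against Mss4d (50.9%). All 8 genes that passed with the other sign did so in that last comparison under that scaling: Dctn1 -0.63, Dctn2 -0.53, Dctn4 -0.58, Dync1i2 -0.79, Dync1li2 -0.55, Kif1b -0.66, Kif3c -0.86 and Klc1 -0.89, where the median of all probes moved by -0.65. With detection p under 0.01 on all 8 arrays, which left 28 motor genes, the counts were 11 for BDIV (34.6% of all probes), 4 for Mss4a (16.2%) and 4 for Mss4d (9.84%), each against BDIX. BDIV against BDIX gave 11 with no background correction (22.6%) and 11 without sex as a term (23.2%); the cause was not tested. On only the 4 arrays compared, Mss4a and Mss4d against BDIX gave 1 each (8.60% and 0.839%). Mss4d against BDIX gave 1 with the authors' values (5.18%), 1 with no filter (1.35%) and 1 without both Mss4a arrays (5.71%). Leaving out each array in turn, with a lone array assumed to vary like the other strains, gave 0 to 9 for BDIV against BDIX, 0 to 2 for Mss4a and 0 to 2 for Mss4d against BDIX, 0 to 1 for Mss4a against Mss4d and 0 for sex. The share of all probes called also changed with the array left out, and is given above for several of these fits. Without both Mss4a arrays, BDIV against BDIX gave 9 motor genes, beside 21.2% of all probes. Without both Mss4d arrays, Mss4a against BDIX gave 2 motor genes, beside 9.46% of all probes. No called motor gene changed direction in any alternative. Pafah1b1 was called in 18 of 19 alternatives (2.62 to 3.60), Kif5b in 17 of 18 for Mss4a (-2.98 to -2.03) and 13 of 18 for Mss4d (-2.48 to -1.62), Dync1li1, Dctn3, Klc1 and Kifc3 in 16 of 19 each, Kif1b in 15 of 19, Kif3b in 10, Kifc1 in 6 and Dctn6 in 5 of 18. The alternatives counted here are not all separate fits, so these tallies count some fits more than once. Leaving out either array or both arrays of a strain outside a comparison gave the same fit of that comparison. The mean of a gene's probes left the motor gene differences unchanged, since each gene had a single tested probe. Dim probes, such as most mitotic kinesins, lie near background, where differences are understated.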
